A study of Mus musculus with 15 samples.

Results

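GABA-A receptors are chloride channels opened by GABA, the main inhibitory transmitter of the cortex, and each is a ring of subunits drawn from several families. Transcripts of 7 of these subunits were followed in the cortex of aged mice: Gabra2, Gabra3, Gabra4 and Gabra5 of the alpha family, Gabrb1 and Gabrb2 of the beta family, and Gabrd, the delta subunit. They were taken by symbol and are 7 of the 22524 gene identifiers in each count table. The mutant animals, 7 in number, carried 1 copy of the D95N allele of Rps9, which encodes a ribosomal protein, beside a wild-type copy. They were set against 8 littermates with wild-type Rps9 (WT). All 15 animals were C57BL/6 females aged 18 months, and each gave 1 library, named here by genotype and animal number. How the D95N allele was made is not given in the sources used here, and no label gives a litter or a sequencing batch.

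The alpha subunits set where a receptor sits and how it responds to drugs, and the beta subunits form the GABA binding site together with the alpha subunits. Receptors with alpha 2 or alpha 3 are mostly synaptic and carry brief, phasic inhibition. Receptors with alpha 5, found mainly in pyramidal cells of the hippocampus and cortex, and receptors with delta, which in the forebrain pairs with alpha 4, lie largely outside synapses. There they answer low ambient GABA with a steady, tonic current, and those with delta are known for their sensitivity to neurosteroids.

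By its design text the study sampled brain cortex, but each label gives skeletal muscle as tissue. Summed levels of 8 pan-neuronal markers were 7602 to 8133 CPM in D95N libraries and 7565 to 8146 CPM in WT libraries. The sum over 11 skeletal muscle markers was 10.1 to 18.8 CPM in D95N and 10.6 to 43.3 CPM in WT. CPM are counts scaled to a common library size with TMM factors. Library totals ran from 23349381 to 34052037 counts in D95N and from 28007441 to 34587082 in WT, and did not differ beyond the scatter of the animals (p = 0.14, two-sided exact permutation test). The first principal component of all tested genes carried 37.8% of the variance. On it, 5 of the D95N libraries lay between -32.5 and -22.5 and the WT libraries between 10.6 and 19.4. D95N 41 lay between these ranges at -4.89, and D95N 42, at 13.9, lay among the WT libraries.

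Gabrd had the fewest counts, 1066 to 2078 per library, and Gabra2 the most, 4511 to 7980, so counting error was small beside the spread between animals. Gabra2 (ENSMUSG00000000560) lies on chromosome 5 of GRCm38 from 70957597 to 71095849 on the minus strand. Gabra4 (ENSMUSG00000029211, 71569749 to 71658308, minus strand) and Gabrb1 (ENSMUSG00000029212, 71658113 to 72149037, plus strand) follow it and stand head to head. Gabra5 (ENSMUSG00000055078) lies on chromosome 7 from 57407672 to 57510059 on the minus strand. Gabrd (ENSMUSG00000029054) lies on chromosome 4 from 155384980 to 155398112 on the minus strand. Gabrb2 (ENSMUSG00000007653) lies on chromosome 11 from 42419757 to 42629028 on the plus strand, and Gabra3 (ENSMUSG00000031343) on chromosome X from 72432681 to 72656848 on the minus strand.

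The sequences around the 5′ ends were compared. RefSeq promoter windows of GRCm38.p6, from 250 bases before to 50 bases after a start, were matched by symbol for 6 of the 7 genes, 10 windows in all. That of Gabra5 is shown because its transcript changed most. Those of Gabra4 and Gabrb1 are shown because the genes start beside each other on opposite strands. Capitals mark each CG dinucleotide, and each window is written 5′ to 3′ on its gene's own strand.
Gabra5, chr7:57510010-57510309, minus strand: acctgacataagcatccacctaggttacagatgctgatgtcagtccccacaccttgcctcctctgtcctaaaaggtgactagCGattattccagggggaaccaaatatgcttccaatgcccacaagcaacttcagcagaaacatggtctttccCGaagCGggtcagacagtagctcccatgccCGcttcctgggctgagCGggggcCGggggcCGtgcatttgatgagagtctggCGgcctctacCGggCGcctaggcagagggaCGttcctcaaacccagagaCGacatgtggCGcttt
Gabra4, chr5:71658259-71658558, minus strand: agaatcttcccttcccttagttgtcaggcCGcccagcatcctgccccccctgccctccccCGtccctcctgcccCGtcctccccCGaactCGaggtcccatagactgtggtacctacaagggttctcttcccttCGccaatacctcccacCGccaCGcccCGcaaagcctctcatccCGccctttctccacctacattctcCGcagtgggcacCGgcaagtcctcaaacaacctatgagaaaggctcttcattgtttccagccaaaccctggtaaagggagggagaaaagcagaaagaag
Gabrb1, chr5:71657671-71657970, plus strand: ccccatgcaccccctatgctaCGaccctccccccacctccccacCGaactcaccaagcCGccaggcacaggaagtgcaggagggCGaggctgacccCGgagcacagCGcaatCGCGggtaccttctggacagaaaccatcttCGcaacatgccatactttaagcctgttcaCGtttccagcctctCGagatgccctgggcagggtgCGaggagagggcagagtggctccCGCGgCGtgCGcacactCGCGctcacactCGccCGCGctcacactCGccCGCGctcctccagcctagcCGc
The windows held 13 CG dinucleotides for Gabra5, 12 for Gabra4 and 25 for this start of Gabrb1, against a median of 7 over all 32851 windows. The Gabra2 window held 25 and both Gabra3 windows held 0. 4 short motifs, bound by CREB, AP-1, EGR and E-box factors, were looked for on both strands, and none of them contains another. They were the CRE TGACGTCA, present in 1.79% of all windows, the AP-1 motif TGANTCA in 7.81%, the EGR motif GCGTGGGCG in 0.612% and the E-box CACGTG in 7.15%. These letters were not in any of the 10 windows.

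Gabra5 and Gabrd fell in D95N cortex, to 0.732 and 0.784 of the WT level, while Gabra2, Gabra3, Gabra4, Gabrb1 and Gabrb2 were not called. The genes that fell encode the subunits best known from receptors outside synapses. The test was edgeR's quasi-likelihood test over all 14989 genes that passed its expression filter, with Benjamini-Hochberg adjustment at 0.05. It called 26.8% of all tested genes, 15.2% higher and 11.6% lower in D95N. Of the 7 subunits, all of which passed the filter, edgeR called 0 higher and 2 lower, DESeq2 and limma-voom gave the same counts, and 0 were higher and 2 lower at an unadjusted p under 0.05. Their median log2 fold change was -0.07, against -0.01 over all tested genes. With scores of blood and meningeal markers as covariates neither fall passed, and those values are given with the markers.

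Gabra5, the alpha 5 subunit, stood at 48.8 CPM in D95N 21, 52.7 in D95N 28, 48.2 in D95N 4, 74.8 in D95N 41, 69.5 in D95N 42, 49.7 in D95N 44 and 53.0 in D95N 50. In WT libraries it stood at 83.1 CPM in WT 11, 81.0 in WT 16, 79.6 in WT 19, 74.5 in WT 24, 81.0 in WT 30, 71.0 in WT 32, 72.3 in WT 43 and 76.7 in WT 8. 5 D95N libraries sat together far below every WT library, D95N 42 just below the lowest, and D95N 41 within the WT range. The mean was 56.7 ± 10.8 CPM in D95N (SD, n = 7) and 77.4 ± 4.46 CPM in WT (SD, n = 8). The log2 fold change was -0.45 ± 0.09 (SE; 95% interval -0.63 to -0.26; edgeR, adjusted p = 0.00178). D95N 41 and D95N 42, the animals with the highest Gabra5, are also those nearest the WT libraries on the first principal component.

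Gabrd, the delta subunit, stood at 41.3 CPM in D95N 21, 51.9 in D95N 28, 35.7 in D95N 4, 46.3 in D95N 41, 49.7 in D95N 42, 35.2 in D95N 44 and 46.0 in D95N 50. In WT libraries it stood at 51.5 CPM in WT 11, 51.0 in WT 16, 54.6 in WT 19, 56.1 in WT 24, 55.0 in WT 30, 60.3 in WT 32, 60.6 in WT 43 and 56.6 in WT 8. Here D95N 28 was the library that reached the WT range, and D95N 4 and D95N 44 were far below the others. The mean was 43.7 ± 6.56 CPM in D95N (SD, n = 7) and 55.7 ± 3.56 CPM in WT (SD, n = 8). The log2 fold change was -0.35 ± 0.08 (SE; 95% interval -0.51 to -0.19; edgeR, adjusted p = 0.00354). In both genes 6 of 7 D95N libraries lay below every WT library. All 7 did so in 1.47% of all tested genes, and in none of the 7 subunits. The share of all tested genes with at least 6 of 7 beyond every WT library was not counted, here or for genes below.

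**Figure D1:**
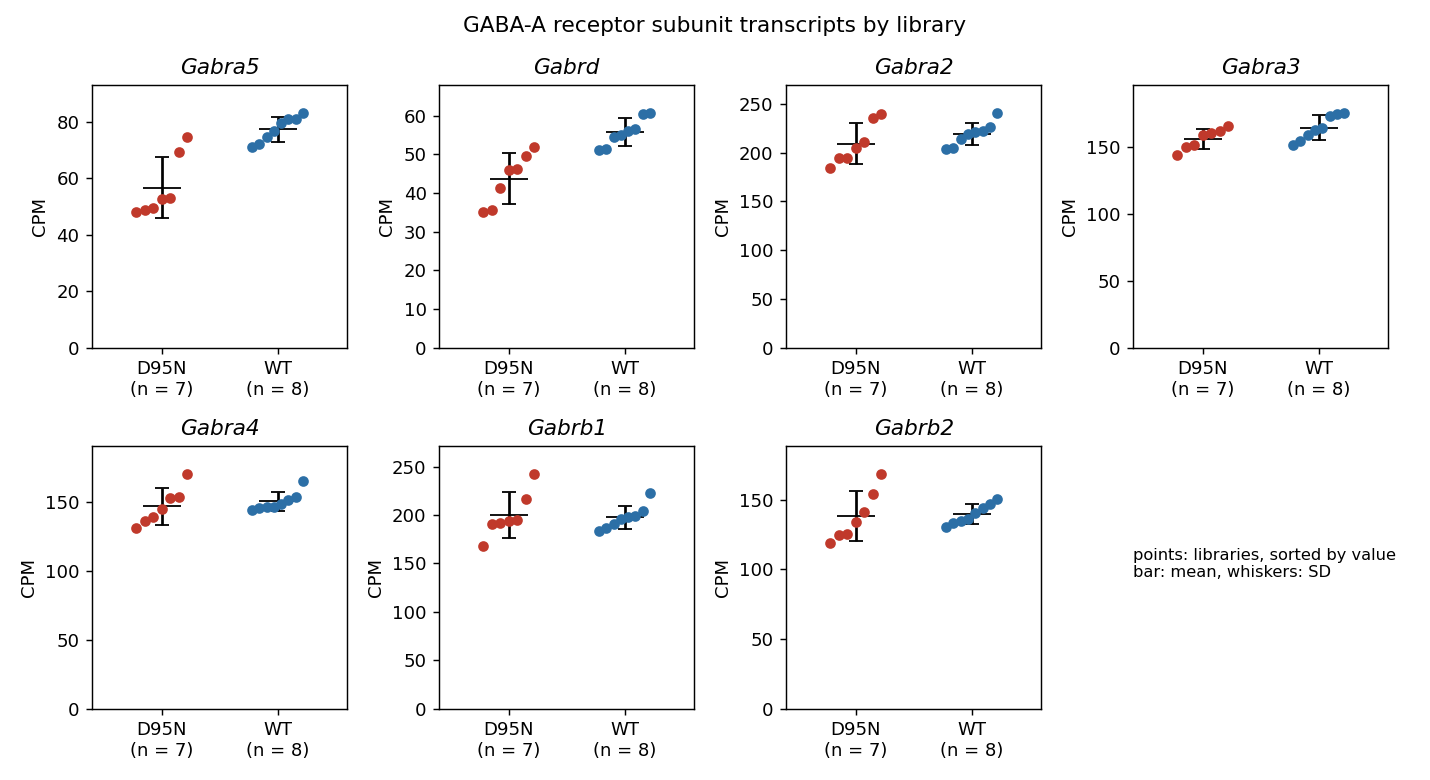
CPM of each subunit gene (y axis, from 0) in 7 D95N libraries (red, left) and 8 WT libraries (blue, right); points are libraries sorted by value, bars are means and whiskers SD. Gabra5 and Gabrd lie lower in D95N with 6 of 7 libraries below every WT library, and the groups overlap broadly for the other 5 genes.

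The libraries low in Gabra5 and in Gabrd were only partly the same. D95N 4, 21 and 44 had the lowest values of both genes. D95N 28 combined a low Gabra5 with the highest Gabrd of its group, and D95N 41 the highest Gabra5 with a Gabrd near its group's median of 46.0 CPM. Among WT libraries the order ran the other way round. WT 11 had the highest Gabra5 and WT 16 the second highest with the lowest Gabrd, whereas WT 32 and WT 43 had the lowest Gabra5 and the highest Gabrd. The Gabra5 level as a percent of Gabrd was 130 ± 20.05% in D95N and 139.9 ± 16.5% in WT (SD), with 5 of 7 D95N libraries inside the WT range.

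**Figure D2:**
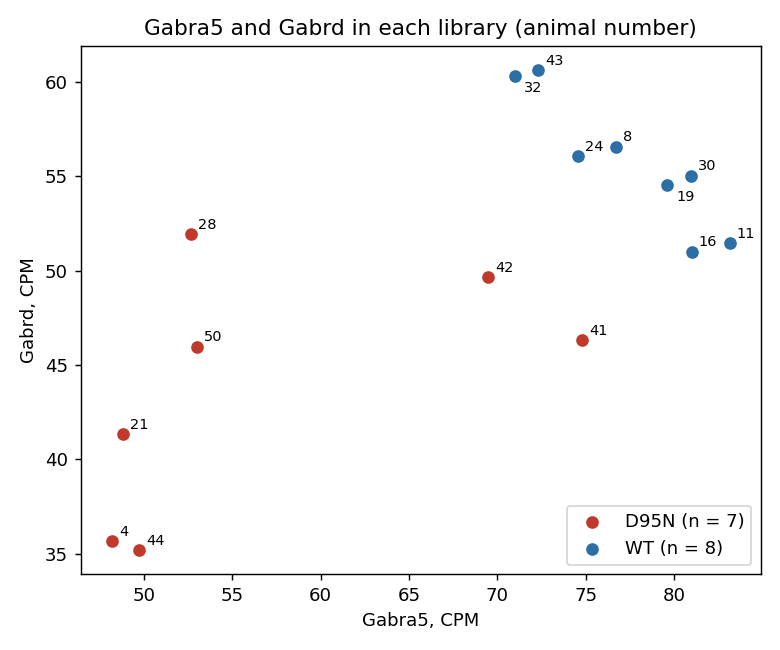
Gabrd CPM (y axis) against Gabra5 CPM (x axis), neither axis from 0, in each of 7 D95N (red) and 8 WT (blue) libraries, labelled by animal number. D95N 4, 21 and 44 are at the lower left with Gabra5 under 50 CPM and Gabrd under 42 CPM, and the WT libraries run from upper left to lower right.

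Among the synaptic alpha subunits, Gabra2 had a lowest, median and highest level of 184, 205 and 239.5 CPM in D95N and of 204, 220.2 and 240.6 CPM in WT. The D95N range held nearly the whole WT range, with 3 D95N libraries below it. The log2 fold change was -0.07 ± 0.05 (SE; 95% interval -0.18 to 0.05; edgeR, adjusted p = 0.389). Gabra3 had a lowest, median and highest level of 144, 159 and 165 CPM in D95N and of 152, 164 and 175 CPM in WT. 3 D95N libraries lay below every WT library and none above. The log2 fold change was -0.08 ± 0.04 (SE; 95% interval -0.16 to 0.01; edgeR, adjusted p = 0.172). These intervals exclude a fall as large as the estimates for Gabra5 and Gabrd.

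Gabra4, the forebrain partner of delta, had a lowest, median and highest level of 131, 145 and 170.5 CPM in D95N and of 145, 148 and 166 CPM in WT. Its log2 fold change was -0.03 ± 0.05 (SE; 95% interval -0.14 to 0.07; edgeR, adjusted p = 0.646), and D95N libraries lay on both sides of the WT range. Gabrb1, which meets Gabra4 head to head, averaged 199.8 ± 23.6 CPM in D95N (SD, n = 7) and 198 ± 12.2 CPM in WT (SD, n = 8). Its log2 fold change was 0.02 ± 0.06 (SE; 95% interval -0.11 to 0.15; edgeR, adjusted p = 0.874). Gabrb2, the other beta subunit, averaged 138 ± 17.9 CPM in D95N (SD, n = 7) and 139.7 ± 7.18 CPM in WT (SD, n = 8). Its log2 fold change was -0.01 ± 0.06 (SE; 95% interval -0.15 to 0.12; edgeR, adjusted p = 0.894).

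Spread among D95N animals was wider for most subunits, as it was for most genes. The SD of log2 CPM was higher in D95N than in WT for 6 of 7 subunits and for 83.1% of all 14989 tested genes. It was 0.26 in D95N and 0.08 in WT for Gabra5, and 0.18 in D95N and 0.07 in WT for Gabrb2. Gabra3 was the exception, with 0.07 in D95N and 0.08 in WT, and these spreads were not tested. The libraries at the extremes were not the same from gene to gene. D95N 44 had the highest Gabra2 and Gabra4 but the lowest Gabrd, D95N 41 the highest Gabra3, Gabra5 and Gabrb1, and D95N 42 the highest Gabrb2 but the lowest Gabra2.

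**Figure D3:**
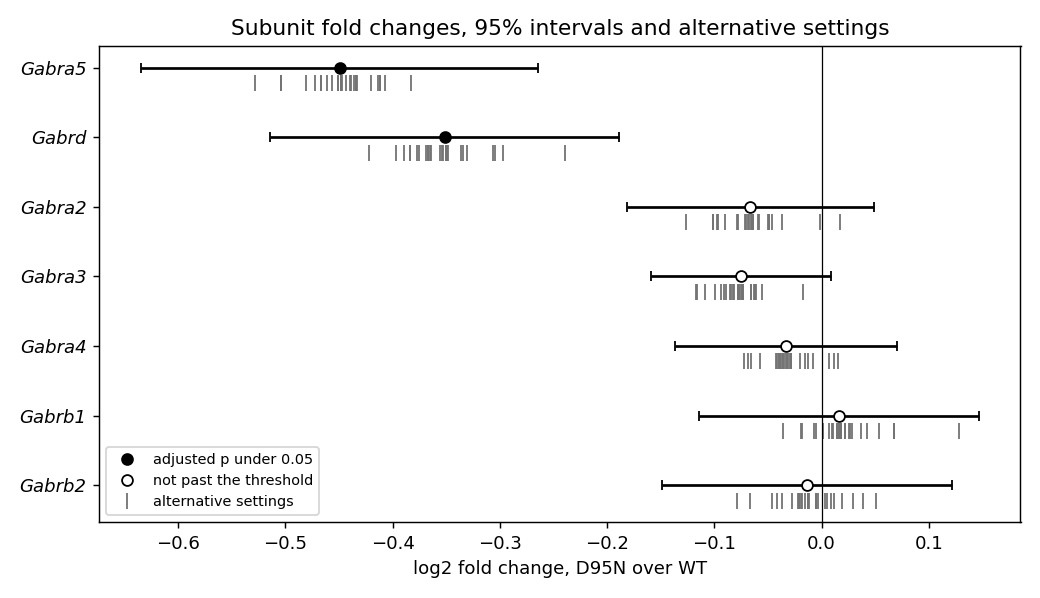
Log2 fold change of D95N over WT (x axis) for each subunit gene (rows), with the 95% interval of edgeR's fit as a bar; filled circles passed an adjusted p of 0.05, open circles did not, and grey ticks are the values under 27 alternative settings. The values of Gabra5 and Gabrd stay below 0 in every setting shown, and those of Gabra2, Gabra4, Gabrb1 and Gabrb2 fall on both sides of it.

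Ratios within a library, which do not depend on library scaling, set the falling subunits against their relatives. Gabrd CPM was 30.2 ± 6.40% of Gabra4 CPM in D95N and 37.1 ± 2.23% in WT (SD), with 4 D95N libraries below every WT library and 3 within the WT range. Gabra5 CPM was 27.3 ± 5.70% of Gabra2 CPM in D95N and 35.4 ± 2.01% in WT, with 6 D95N libraries below every WT library. Subunits that were not called gave mixed ratios. Gabra2 was 142 ± 8.85% of Gabra4 in D95N and 146 ± 11.3% in WT, with all 7 D95N libraries inside the WT range. Gabrb1 was 146 ± 17.3% of Gabrb2 in D95N and 142 ± 6.87% in WT, with 1 D95N library below the WT range, 2 within it and 4 above it. These ratios were not tested.

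Levels of different genes were compared per kilobase of exon, a CPM divided by the length of all annotated exons of the gene in GENCODE M21. Gabra3 was highest, at 39.7 ± 1.93 in D95N and 41.8 ± 2.35 in WT (SD), with no overlap of its range with that of any other subunit. Gabra2 followed at 27.4 ± 2.78 in D95N and 28.7 ± 1.54 in WT. Gabra5 stood at 19.1 ± 3.64 in D95N and 26.03 ± 1.498 in WT, Gabra4 at 24.2 ± 2.18 in D95N and 24.7 ± 1.14 in WT, and Gabrb2 at 21.7 ± 2.82 in D95N and 21.96 ± 1.13 in WT. In D95N Gabra5 thus came below Gabra4 and Gabrb2, with ranges that overlapped both. In WT it came above them, with a range that overlapped those of Gabra2 and Gabra4 but not that of Gabrb2. Gabrd was at 15.2 ± 2.28 in D95N and 19.4 ± 1.24 in WT. Gabrb1 was lowest, at 14.4 ± 1.71 in D95N and 14.3 ± 0.879 in WT. Its range overlapped that of Gabrd in D95N and lay below it in WT. The order depends on the length used. Per kilobase of the longest coding transcript, the WT mean of Gabra5 was 29.0, below Gabra4 at 36.6 and Gabrb2 at 35.0 and level with Gabrd at 29.0.

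**Figure D4:**
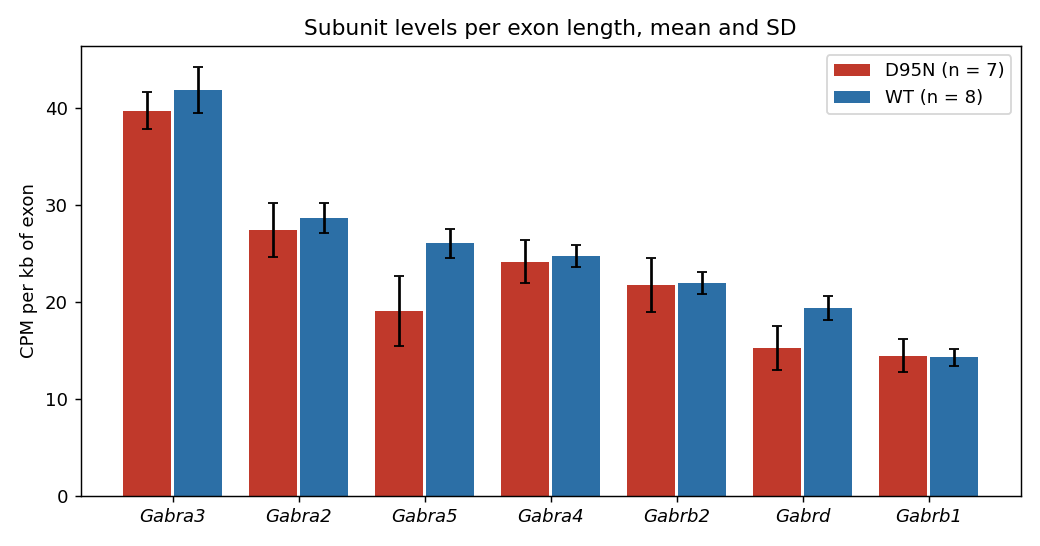
Mean CPM per kilobase of exon (y axis, from 0) of each subunit gene in D95N (red, left, n = 7) and WT (blue, right, n = 8), with SD as whiskers. Gabra3 is highest in both genotypes and Gabrb1 lowest, and Gabra5, at 19.1 in D95N and 26.03 in WT, stands below Gabra4 in D95N and above it in WT.

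Exons of Gabra4 and Gabrb1 share 46 bases on opposite strands at their 5′ ends. Exons of Gabra5 share 148 of 2974 bases with Gm9962, an antisense gene. Whether the authors counted by strand is not given in the sources used here. Reads in these stretches therefore cannot be assigned with certainty.

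For each subunit, the 2 genes of most like pattern were sought among 10149 genes that averaged 10 CPM or more. Likeness was Pearson's r over the 15 libraries after the genotype mean was taken from log2 CPM, given as a description only. It leaves the libraries' shared handling and tissue makeup in place. Most genes spread more widely in D95N, so the D95N libraries weigh more in r. Whether r holds within each genotype was not looked at for the genes below. For Gabra5 they were Parm1 (r = 0.926) and Pygo1 (r = 0.924), and for Gabrd Fam20c, a kinase of the secretory pathway (r = 0.914), and Pcp4, a calmodulin-binding protein (r = 0.900). For Gabra2 they were Slc39a6, a zinc transporter (r = 0.911), and Pea15a (r = 0.853), and for Gabra3 Gda, guanine deaminase (r = 0.874), and Taok3, a kinase (r = 0.813). For Gabra4 they were Bdp1 (r = 0.898) and Snap29 (r = 0.863). For Gabrb1 they were Sec23a, a coat protein of transport vesicles (r = 0.828), and Tacc2 (r = 0.818). For Gabrb2 they were Gucy1a2, a subunit of soluble guanylate cyclase (r = 0.933), and Megf9 (r = 0.932). No gene appeared for more than 1 subunit.

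The other genes of GABA signalling moved in both directions. Over 6 pathway lists, 61 genes were tested, of which 12 were called higher and 11 lower in D95N. Of 12 other GABA-A receptor subunits, 8 were tested, and edgeR called 0 higher (0 also at an unadjusted p under 0.05) and 2 lower. Their log2 fold changes ran from -0.55 to 0.16 with a median of -0.15. DESeq2, which has its own filter and tested 16770 genes, called 1 higher and 3 lower among all 12 listed. Without D95N 28 and D95N 50, the shallowest libraries, edgeR called 0 of them lower. The counts in each list stand beside the 15.2% of all genes called higher and the 11.6% called lower.

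Genes that anchor GABA-A receptors or carry them to the membrane gave 6 called higher and 2 called lower of 22 tested, with a median log2 fold change of 0.06. Kif5a, a kinesin motor that carries receptor-bearing vesicles among other cargo, averaged 3374 ± 194 CPM in D95N (SD, n = 7) and 2671 ± 56.6 CPM in WT (SD, n = 8). The log2 fold change came to 0.34 ± 0.03 (SE; edgeR, adjusted p = 7.7e-05), and all 7 D95N libraries lay above every WT library, a separation seen in 1.81% of all genes. Iqsec3, an exchange factor of inhibitory synapses that binds gephyrin, averaged 306 ± 47.1 CPM in D95N and 213 ± 7.42 CPM in WT, again with all 7 D95N libraries above. Trak2, an adaptor between kinesin and its cargo, averaged 308 ± 70.9 CPM in D95N and 212 ± 11.3 CPM in WT. Insyn1, a protein of inhibitory postsynapses, rose with a log2 fold change of 0.36, and Plcl2 and Plcl1, phospholipase C-like proteins that bind receptor subunits, rose with 0.22 and 0.14.

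Shisa7, an auxiliary subunit of GABA-A receptors, averaged 127 ± 5.54 CPM in D95N (SD, n = 7) and 146 ± 9.28 CPM in WT (SD, n = 8), and fell by 0.20 on the log2 scale (edgeR, adjusted p = 0.00276). 6 of 7 D95N libraries lay below every WT library. Gphn, which encodes the scaffold gephyrin itself, stood at 82.4 ± 11.8 CPM in D95N and 83.3 ± 2.09 CPM in WT, and was not called (edgeR, adjusted p = 0.89).

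Of 9 genes that make, pack, take up or break down GABA, 3 were called higher and 5 lower, with a median log2 fold change of -0.11. Those called higher act inside GABA neurons. Slc32a1, the vesicular GABA transporter, averaged 190.5 ± 29.3 CPM in D95N and 148 ± 14.0 CPM in WT (log2 fold change 0.36 ± 0.08, SE). Gad2 averaged 461 ± 123 CPM in D95N and 334 ± 29.7 CPM in WT, and Gad1, the other GABA-synthesising enzyme, 617 ± 89.7 CPM in D95N and 534 ± 29.0 CPM in WT. Those called lower included the membrane transporters Slc6a11, Slc6a12 and Slc6a13 and the breakdown enzyme Aldh5a1. Slc6a11, the GABA transporter GAT-3 of astrocytes, averaged 230.5 ± 32.1 CPM in D95N and 313 ± 16.9 CPM in WT (log2 fold change -0.44 ± 0.07, SE; edgeR, adjusted p = 0.000444). Astrocyte markers were lower beside it. Of 12, 0 were called higher and 6 lower, with sums of 4308 to 5151 CPM in D95N and 4934 to 5209 CPM in WT, and none was at 0 in any library. For Slc1a3, a glutamate transporter among them, all 7 D95N libraries lay below every WT library. The part of astrocyte content in the fall of Slc6a11 was not tested. Slc6a13, a transporter with high expression in the meninges, averaged 4.79 ± 1.66 CPM in D95N and 9.57 ± 1.03 CPM in WT.

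Of 8 genes of GABA-B receptors, which act through G proteins, 1 was called higher and 2 lower, and without D95N 28 or without D95N 42 there were 2 called higher. Kcnj6, a potassium channel subunit opened by them, averaged 21.7 ± 1.88 CPM in D95N and 14.9 ± 1.94 CPM in WT, with all 7 D95N libraries above every WT library. Kcnj3, its partner subunit, fell by 0.23 on the log2 scale and Kctd8, an auxiliary subunit of the receptor, fell by 0.39. The receptor genes Gabbr1 and Gabbr2 were not called, with log2 fold changes of 0.03 and 0.18. Of 8 genes that set intracellular chloride, the kinases Stk39 (0.22) and Wnk2 (0.21) were called higher by edgeR and 0 lower. 1 gene had an unadjusted p under 0.05 on the lower side, DESeq2 and limma-voom called 0 lower, and without D95N 28 or without D95N 41 edgeR called 1. The chloride extruder Slc12a5 had a log2 fold change of -0.09 (edgeR, adjusted p = 0.149) and the importer Slc12a2 one of -0.03. Of 6 tested genes of neurosteroid and endozepine synthesis, 0 were called by edgeR, DESeq2 or limma-voom, and 2 had an unadjusted p under 0.05 in edgeR's test, both lower. Srd5a1, a steroid reductase on the path to the neurosteroids that act at delta receptors, stood at 9.42 ± 1.23 CPM in D95N and 10.6 ± 0.727 CPM in WT (edgeR, adjusted p = 0.0949). It passed when either D95N 41 (adjusted p = 0.0448) or D95N 42 (adjusted p = 0.0428) was left out of edgeR's fit.

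**Figure D5:**
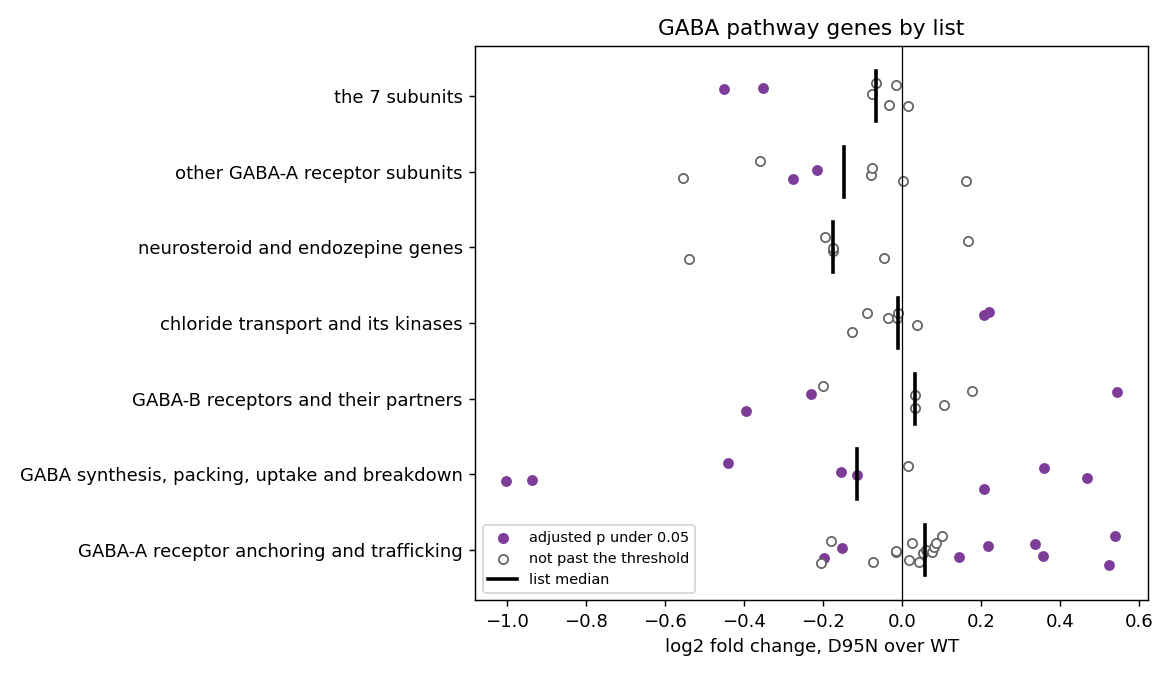
Log2 fold change of D95N over WT (x axis) of each tested gene of the 7 subunits and of 6 GABA pathway lists (rows); filled points passed an adjusted p of 0.05, open points did not, and the black bar is the list's median. The 7 subunits have 2 filled points, both below 0, and the anchoring list has 6 above 0 and 2 below.

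Markers of the cells that carry or contact these receptors differed too. In whole tissue, fewer cells of a type and less RNA per cell cannot be told apart. Of 19 interneuron markers 4 were called higher and 4 lower, and their summed level was 906 to 1204 CPM in D95N and 939 to 1020 CPM in WT. Without D95N 21 or without D95N 44, 2 were called higher. Npy, a neuropeptide of several interneuron types, neurogliaform cells included, averaged 95.4 ± 45.8 CPM in D95N and 32.4 ± 2.60 CPM in WT, a log2 fold change of 1.56 (edgeR, adjusted p = 0.00054), with 6 of 7 D95N libraries above every WT library. Sst and Cck, neuropeptides of other interneurons, also rose, with log2 fold changes of 0.37 and 0.47. Reln, the remaining marker called higher, had one of 0.23. Lamp5 and Ndnf, listed here as markers of neurogliaform interneurons, fell. They averaged 80.4 ± 19.5 and 9.75 ± 1.03 CPM in D95N, and 114 ± 11.01 and 12.5 ± 1.44 CPM in WT. 6 of 7 D95N libraries lay below every WT library for each. Which cells gave the reads of Lamp5, Ndnf and Cck cannot be told in whole tissue. Vip and Erbb4, the remaining markers called lower, had log2 fold changes of -0.32 and -0.25. Pvalb, the marker of fast-spiking interneurons, was not called, with 58.9 ± 8.18 CPM in D95N and 58.8 ± 10.4 CPM in WT. Of 13 markers of excitatory neurons, the main site of Gabra5, 3 were called higher and 6 lower.

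Markers of neighbouring regions and of other tissue moved beside Gabra5 and Gabrd. Of 8 hippocampal markers 1 was called higher, C1ql2, and 0 lower by edgeR, with sums of 97.4 to 128 CPM in D95N and 102 to 129 CPM in WT. 2 of them were lower before adjustment, at a p under 0.05, and limma-voom called 1 lower. Of 8 thalamic markers 1 was called lower, Ntng1, with sums of 277 to 386 CPM in D95N and 307 to 489 CPM in WT. Of 13 striatal markers 7 were called lower, with sums of 902 to 1741 CPM in D95N and 1048 to 1592 CPM in WT. Of 8 blood cell markers all 8 were called lower, with sums of 37.3 to 149 CPM in D95N and 81.4 to 312 CPM in WT. Of 12 meningeal markers 1 was called higher and 4 lower, with sums of 73.9 to 144 CPM in D95N and 119 to 164 CPM in WT. No marker of these 5 lists was at 0 in any library. Single libraries decided part of these counts. C1ql2 was no longer called when any of 12 libraries was left out in turn, and without D95N 42 or D95N 44 a hippocampal marker was called lower. Without D95N 42, 2 thalamic markers were called lower. The striatal count was 2 to 4 without D95N 4, 41 or 44 or WT 16, 30 or 43, and the blood count 4 or 5 without D95N 4, 28, 41 or 44 or WT 32.

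These markers were entered as covariates, each set as per-library scores beside genotype. With thalamus and hippocampus scores, Gabra5 and Gabrd stayed called, with log2 fold changes of -0.38 and -0.38 (edgeR, adjusted p = 0.0438 and 0.0311). With oligodendrocyte, choroid plexus and striatum scores, Gabra5 stayed called at -0.50 (adjusted p = 0.0116) and Gabrd was not called at -0.30 (edgeR, adjusted p = 0.126). With blood and meninges scores, neither passed. Gabra5 then had a log2 fold change of -0.44 (edgeR, adjusted p = 0.098) and Gabrd one of -0.24 (edgeR, adjusted p = 0.262), and 54 genes passed in all. With each library left out in turn, both stayed called, from -0.53 to -0.41 for Gabra5 and from -0.40 to -0.30 for Gabrd. The part of tissue makeup in these differences was not tested.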

How the data were processed

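Frozen tissue pieces were extracted with Trizol before library preparation by Illumina protocols, per the labels. The authors deposited 1 table of unnormalised counts, reads per Ensembl gene, for each of 15 animals. STAR and featureCounts are the tools named in the submitters' processing notes, and GRCm38 is the build. Versions, annotation and strand setting were not given in the sources used here. Of 22524 identifiers, 22214 matched GENCODE M21, which gave symbols, positions and lengths, and 310 did not. Animals are separate samples, and no library pair agreed within sampling noise.

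The counts as deposited went into edgeR's quasi-likelihood test with TMM factors, its default filter, genotype as the only term and Benjamini-Hochberg adjustment at 0.05 over 14989 genes. The procedure was tested on simulated counts in which few genes changed and both genotypes had the same spread. The real data differ in both respects, so the simulation did not check the procedure for them. The SE of a log2 fold change was taken as its size over the root of F, and intervals are at 95%. R 4.3.3, edgeR 4.0.16, limma 3.58.1, DESeq2 1.42.0 and Python 3.11.15 were used. The alternatives were other scalings and filters, DESeq2, limma-voom, a GC and length offset, marker scores as covariates and each library left out. Leaving out the 2 shallowest libraries was added after their totals were seen.

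The subunits and gene lists were chosen with earlier results of these data known. Genes of the pathway lists were named by smallest p among those called, up to 4 a list, or up to 2 where none was called. Other pathway genes, Pvalb, Sst, Cck, Reln, Vip, Erbb4 and Slc1a3 were chosen after their values were seen. Marker genes were named by smallest p, up to 3 a list. Some list genes are not reported here by name.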

Additional observations from a re-analysis of the deposited data

Results flagged for a closer look

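The 7 subunits, the library totals and the mitochondrial share were looked at for a library far from the rest of its genotype, in 18 groups of libraries. Chance alone sets about 1 in 20 such groups apart. Gabra4 stood at 166 CPM in WT 24, while the median of the WT libraries was 148 CPM. Mitochondrially encoded genes took 4.30% of counts in WT 32, against 3.89 ± 0.174% (SD, n = 8) over all WT libraries. The part of these libraries in the results was looked at only by leaving each out in turn, and Gabra5 and Gabrd stayed called without either.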

How the results depend on the processing

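The WT animals were littermates, but no analysis paired or blocked by litter was possible because no label gives a litter. Genes called numbered 4016, with 2272 higher and 1744 lower. Leaving out each library in turn gave 3263 to 4976, with 1952 to 2694 higher and 1305 to 2282 lower. Upper-quartile factors gave 1926 higher and 2351 lower, and library totals 1808 higher and 2536 lower. Blood and meninges scores as covariates left 54 (23 higher, 31 lower), oligodendrocyte, choroid plexus and striatum scores 2153 (1308 and 845), and thalamus and hippocampus scores 1642 (1013 and 629). Subunits called lower numbered 0 with blood and meninges scores (Gabra5 -0.44, adjusted p = 0.098; Gabrd -0.24, adjusted p = 0.262, edgeR) and 1 with the oligodendrocyte set (Gabrd -0.30, adjusted p = 0.126, edgeR). All 8 blood markers were themselves called lower in D95N. Under the other alternatives both stayed called. Pathway genes called higher, 12 at first, were 1 with blood and meninges scores and 6 with thalamus and hippocampus scores. Those called lower, 11 at first, were 1, 4 with thalamus and hippocampus scores and 5 with the oligodendrocyte set.

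Of the 5 subunits not called, Gabra3 kept its sign under every alternative, from -0.117 to -0.017, and the log2 fold changes of the other 4 changed sign near 0. With the GC and length offset Gabra2 was 0.018, Gabra4 0.015 and Gabrb2 0.039. With thalamus and hippocampus scores Gabra4 was 0.0066 and Gabrb2 0.0055, and without the 2 shallowest libraries Gabra4 was 0.012 and Gabrb2 0.051. Gabrb2 was 0.030 with blood and meninges scores. Gabrb1 was -0.0072 with upper-quartile factors, -0.018 with library totals and -0.019 with the oligodendrocyte set. With single libraries left out, Gabrb1 ran from -0.036 to 0.054 and Gabrb2 from -0.067 to 0.019. The blood marker S100a8 was 0.42 with blood and meninges scores. The cause of these changes was not tested. With 7 and 8 animals, changes inside the printed intervals cannot be told from none.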
